A study of Mus musculus with 6 samples.

Results

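The fibroblast growth factor (FGF) genes described here are 6 ligands, *Fgf1*, *Fgf2*, *Fgf7*, *Fgf9*, *Fgf10* and *Fgf18*, and the 4 receptor tyrosine kinases *Fgfr1*, *Fgfr2*, *Fgfr3* and *Fgfr4*. They were taken by name, as 10 of the 18099 genes in the expression table, and all 10 had enough reads to be tested. The table came from RNA sequencing of Achilles tendon tissue of neonatal mice, collected a week after the tendon had been cut through, and addressed what the loss of AMPKα1 from macrophages does to the healing tissue. There were 3 libraries from Lysm-Cre; Ampkα1fl/fl mice, called the Cre group here, and 3 from control mice, which the labels describe as littermates and the study as Ampkα1fl/fl mice. Every library was from transected tendon. In the Cre group, the floxed *Ampkα1* gene (symbol *Prkaa1*) is cut by Cre made from the lysozyme M locus, which is active in myeloid cells, and RNA was taken from the tissue as a whole. No value here therefore separates macrophages from tendon cells.

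FGF ligands are secreted proteins that bind their receptors together with heparan sulfate, a sugar chain carried by proteoglycans of the cell surface and matrix. A bound receptor activates the RAS and ERK kinase cascade through the adaptor FRS2, and the cascade switches on its own inhibitors, the Sprouty proteins and the phosphatase DUSP6. In the developing limb, FGFs of muscle and tendon tissue take part in setting up tendon progenitors. Which ligand a receptor can bind is decided in *Fgfr1*, *Fgfr2* and *Fgfr3* by a choice between 2 alternative exons, IIIb and IIIc, that code for the end of the third immunoglobulin-like domain. Epithelia mostly use IIIb, which in FGFR2 is the form bound by FGF7 and FGF10, and mesenchyme mostly uses IIIc, which is bound by FGF2, FGF9 and FGF18.

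For each RefSeq transcript and library, the authors deposited an estimated read count and a TPM value, a transcript level that is scaled to transcript length and library size. Reads of all transcripts of a gene were summed. Library totals lay between 18076805 and 19479887 reads, and the 10 most abundant genes took 17.18 to 18.4% of them. *Prkaa1* had 740, 688 and 690 reads in the control libraries and 626, 751 and 652 in the Cre libraries (log2 fold change -0.08, with a standard error, SE, of 0.09, and an edgeR adjusted p of 0.744), so this gene does not check the labels in RNA of the whole tissue. Reads of *Lyz2*, which encodes lysozyme M and holds the Cre, numbered 7378, 7778 and 7372 against 9, 15 and 8 (edgeR adjusted p = 3.41e-06). The groups therefore differed in *Lyz2* RNA as well as in the intended deletion of *Ampkα1*, and the comparison cannot tell these apart. The 13 tendon markers summed to between 101962.6 and 111389.2 CPM (reads scaled to the library total) in the control libraries and between 94990.6 and 112277.2 CPM in the Cre libraries, so the groups overlapped, with 6 genes above 0 and 7 below 0 in log2 fold change and 1 called by edgeR. Summed over 20 genes of skeletal muscle fibres, expression ran from 258.0 to 4283.9 CPM in the control libraries and from 1424.6 to 12454.4 CPM in the Cre libraries, and all 20 had a log2 fold change above 0 (median 1.81), 0 of them with an unadjusted p under 0.05. Muscle RNA therefore varied between libraries of the same group. Its sum was also higher in the Cre library of each same-numbered pair, so muscle RNA and group cannot be fully told apart.

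Levels can be compared between genes only per length, and are given for that purpose in TPM. *Fgfr1* stood far above the other members, at a mean of 141.6 TPM over the 6 libraries (125.5 to 151.8). *Fgf18* followed at 17.0 TPM (15.3 to 18.2), *Fgf2* at 14.9 TPM (11.6 to 18.3), *Fgf7* at 11.7 TPM (6.35 to 15.3) and *Fgf1* at 10.1 TPM (5.79 to 17.1). The other receptors and ligands were lower, *Fgfr2* at 6.48 TPM (5.52 to 7.52), *Fgf10* at 3.58 TPM (2.01 to 6.76), *Fgfr4* at 2.73 TPM (0.94 to 6.5), *Fgfr3* at 2.01 TPM (1.26 to 3.16) and *Fgf9* at 1.32 TPM (0.92 to 1.82). *Fgfr1* and *Fgf18* were the single pair of neighbours in this order whose ranges did not overlap. In summed TPM, *Fgf2* was nevertheless above *Fgf7* in each of the 6 libraries. That order rests on a *Fgf2* transcript with 1.3 to 2.8% of the gene's estimated reads but 17.6 to 31.1% of its TPM. The other *Fgf2* transcript alone had 11.51, 11.22 and 12.58 TPM in the control libraries and 9.54, 12.08 and 9.48 TPM in the Cre libraries. *Fgf7* had 15.26, 13.46 and 12.89 TPM against 9.67, 12.53 and 6.35 TPM, above that transcript in every library except Cre replicate 3.

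**Figure D1:**
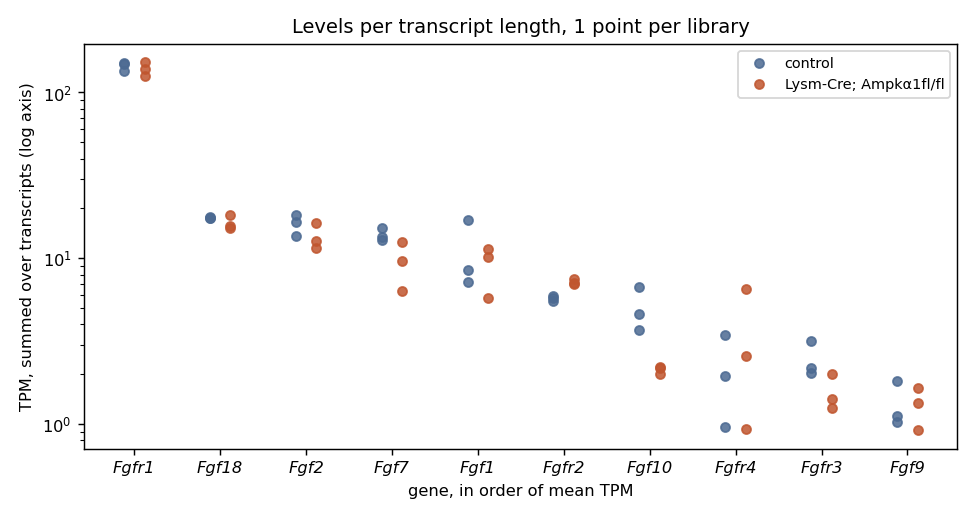
Level of each FGF ligand and receptor in TPM (log axis), with 1 point for each library and the genes in order of their mean. *Fgfr1* lies between 125.5 and 151.8 TPM in both groups, far above all other members, and the points of *Fgf10* lie lower in the Cre group than in the control group.

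Of the summed receptor TPM, *Fgfr1* made up 93.3 ± 1.12% in the control group and 91.9 ± 2.29% in the Cre group (SD, n = 3). *Fgfr2* made up 3.61, 3.71 and 3.8% in the control libraries and 4.66, 4.63 and 5.09% in the Cre libraries. The summed level of the 4 receptors was similar in the groups, at 154.6 ± 8.19 and 151.0 ± 10.9 TPM, a difference smaller than the spread between libraries. The 6 ligands summed to 63.8, 59.8 and 71.3 TPM in the control libraries and to 50.1, 62.1 and 44.1 TPM in the Cre libraries, so the groups overlapped. Within that sum, the share of *Fgf10* was 7.22, 11.3 and 5.19% in the control libraries and 4.01, 3.59 and 4.99% in the Cre libraries.

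The test of the ligands was edgeR's quasi-likelihood fit over 14261 genes. Expression is CPM scaled with the TMM method, and all fold changes are Cre over control. *Fgf10*, a ligand made by mesenchyme for neighbouring epithelium and for fat and limb precursors, showed the largest difference of the 10 members. Its expression was 9.68, 14.9 and 7.84 CPM in the control libraries (183, 272 and 143 reads) and 4.33, 4.60 and 4.81 CPM in the Cre libraries (83, 85 and 89 reads). All 3 Cre libraries lay below all control libraries, and their spread was small beside that of the control group (4.58 ± 0.242 against 10.8 ± 3.64 CPM). The log2 fold change was -1.24 (SE 0.24), a level 2.36 times lower, with an unadjusted p of 0.00147 and an edgeR adjusted p of 0.0824. The call depended on the tool. DESeq2, which has its own model of the spread, gave *Fgf10* an adjusted p of 0.000681, and the 14 alternatives together ranged from 0.000681 to 0.259, with log2 fold changes from -1.42 to -0.94. In RNA of whole tissue, fewer cells that make a transcript and less of it in each cell cannot be told apart.

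*Fgf7*, the keratinocyte growth factor, of the same subfamily as *Fgf10*, had 17.8, 16.3 and 15.1 CPM in the control libraries and 11.5, 14.3 and 7.68 CPM in the Cre libraries. The groups again did not overlap, but the highest Cre library came close to the lowest control library. The log2 fold change was -0.56 (SE 0.21, unadjusted p = 0.0365, edgeR adjusted p = 0.299). With a score of skeletal muscle RNA added to the model, it was -0.29 for *Fgf7* and -1.10 for *Fgf10*. The ratio of *Fgf10* to *Fgf7* in TPM was 0.364 ± 0.12 in the control group and 0.244 ± 0.0899 in the Cre group, a difference within the spread.

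Sums of several other marker lists were lower in the Cre group, in part with overlap between the groups. In edgeR, 0 genes of the adipocyte, bone, macrophage and dividing cell lists were called. Of all genes tested, 0.898% were called and 14.5% had an unadjusted p under 0.05. The 7 adipocyte genes summed to between 210.5 and 380.7 CPM in the control libraries and between 71.4 and 255.3 CPM in the Cre libraries. These sums overlapped, all 7 genes had a log2 fold change below 0, and 3 had an unadjusted p under 0.05. *Adipoq* and *Plin1*, defining genes of fat cells that were picked for naming after their values were seen, were at 21.6 to 61.3 and 14.8 to 33.3 CPM in the control libraries and at 3.52 to 26.9 and 1.51 to 11.1 CPM in the Cre libraries. The 7 bone genes summed to between 22.6 and 38.3 CPM in the control libraries and between 19.1 and 20.9 CPM in the Cre libraries. Of the 7, 6 were below 0 and 1 above 0 in log2 fold change, and 5 had an unadjusted p under 0.05. The bone matrix gene *Ibsp*, also picked afterwards, was at 1.32 to 8.73 CPM in the control libraries and at 0.0, 0.162 and 0.162 CPM in the Cre libraries. The 12 macrophage genes summed to between 1175.6 and 1225.0 CPM in the control libraries and between 777.3 and 999.5 CPM in the Cre libraries. Of the 12, 9 were below 0 and 3 above 0 in log2 fold change, and 6 had an unadjusted p under 0.05. The 7 erythrocyte genes were lower as well, with 6 called by edgeR. The 10 genes of dividing cells all had an unadjusted p under 0.05, with sums of 454.2 to 576.5 CPM against 277.2 to 403.0 CPM. Markers of epidermis, an epithelium that uses the IIIb receptor, were scarce, with 10 genes summing to between 10.7 and 69.3 CPM over the 6 libraries. The part of these cell types in the levels of *Fgf7* and *Fgf10* was not tested.

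The remaining ligands overlapped between the groups. *Fgf2*, the basic FGF and a mitogen of fibroblasts, had 34.3, 34.5 and 37.8 CPM in the control libraries and 28.7, 35.2 and 29.2 CPM in the Cre libraries. Of its Cre libraries, 2 were below the control range and 1 was within it (log2 fold change -0.19, SE 0.10, edgeR adjusted p = 0.417). *Fgf18*, which acts on cartilage and bone cells, was the steadiest ligand, at 10.8, 11.1 and 10.6 CPM against 9.60, 10.8 and 9.62 CPM (log2 fold change -0.12, SE 0.10, edgeR adjusted p = 0.639). *Fgf1*, the acidic FGF that binds every receptor form, varied more within the control group than between the groups, at 15.7, 13.9 and 31.3 CPM against 18.8, 20.2 and 11.1 CPM (edgeR adjusted p = 0.782). Its direction was set by control replicate 3, without which the log2 fold change was 0.18 in place of -0.28. *Fgf9*, a ligand of the IIIc forms with a role in muscle and skeleton, was low in every library, at 1.96, 2.24 and 3.45 CPM against 1.77, 2.49 and 3.24 CPM (log2 fold change -0.03, SE 0.31, edgeR adjusted p = 0.980).

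**Figure D2:**
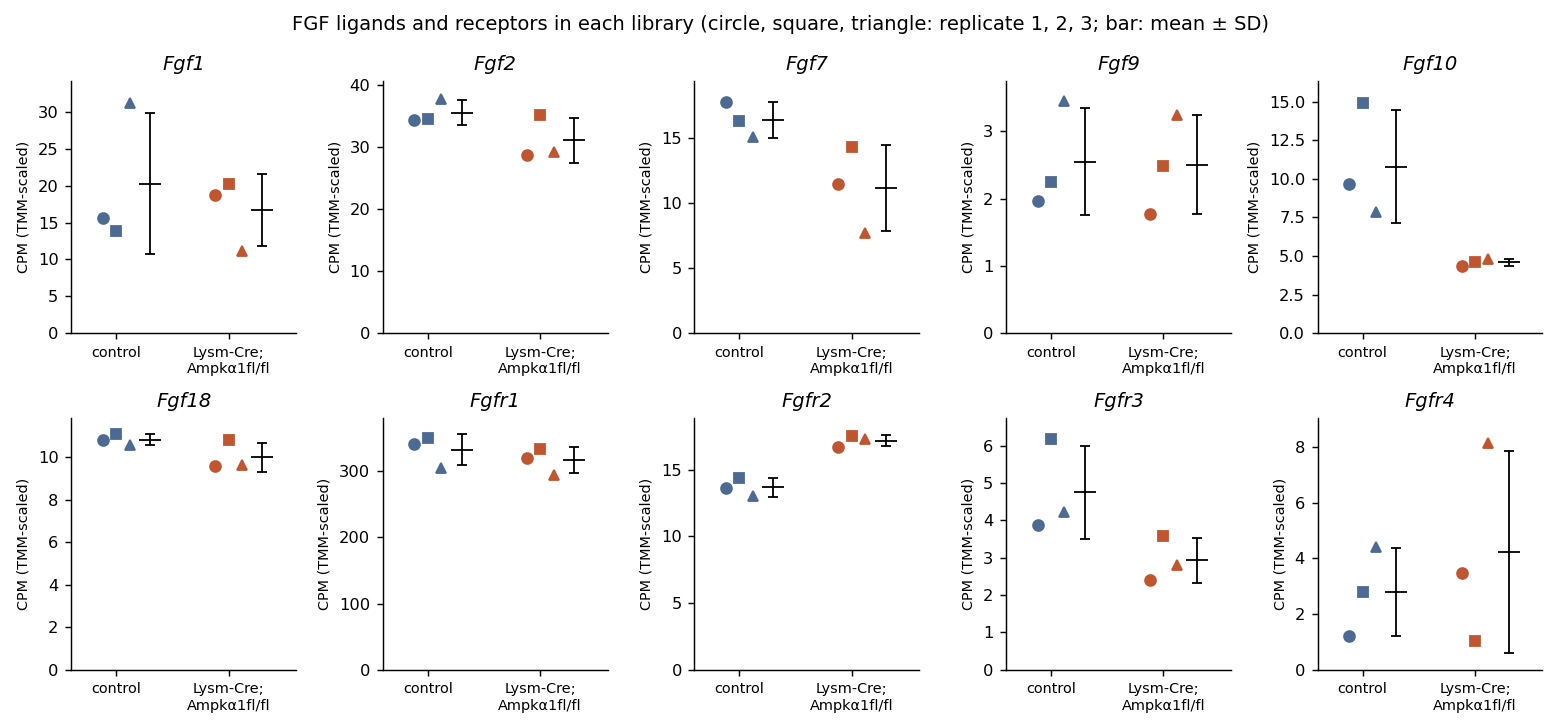
Expression of the 10 members in CPM (linear axes from 0), with 1 marker for each library, the same marker shape for the same replicate number, and a bar for the mean ± SD of 3 libraries. The groups do not overlap for *Fgf7*, *Fgf10* and *Fgfr3*, which are lower in the Cre group, and for *Fgfr2*, which is higher.

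Of the receptors, *Fgfr2* was higher and *Fgfr3* lower in every Cre library than in any control library, without passing the edgeR threshold. *Fgfr1*, the main receptor of mesenchymal cells, had 340.5, 350.7 and 305.4 CPM in the control libraries and 320.3, 334.1 and 294.7 CPM in the Cre libraries. In both groups replicate 3 was the lowest, and the ranges overlapped (log2 fold change -0.07, SE 0.08, edgeR adjusted p = 0.735). The value rested on 5452 to 6436 reads in each library, the most of any member. *Fgfr2* had 13.6, 14.4 and 13.0 CPM in the control libraries and 16.7, 17.5 and 17.3 CPM in the Cre libraries. The groups stood apart, with little spread in either group (13.7 ± 0.718 and 17.2 ± 0.410 CPM). The log2 fold change was 0.33 (SE 0.08), or 1.25 times the control level, with an unadjusted p of 0.00482 and an edgeR adjusted p of 0.129, and it stayed between 0.29 and 0.37 under the 14 alternatives.

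*Fgfr3*, which restrains the growth of cartilage, had 3.86, 6.17 and 4.22 CPM in the control libraries and 2.40, 3.57 and 2.81 CPM in the Cre libraries. The groups did not overlap, and control replicate 2 stood above the other libraries (log2 fold change -0.70, SE 0.25, unadjusted p = 0.0265, edgeR adjusted p = 0.261). The same library had the most RNA of the 12 cartilage markers, whose sum was 2127.8 to 4240.2 CPM in the control libraries and 2502.8 to 2864.2 CPM in the Cre libraries. Of the 10 cartilage genes tested, 1 was called by edgeR and 6 had an unadjusted p under 0.05, beside 0.898 and 14.5% of all genes. In log2 fold change, 4 were above 0 and 6 below 0. *Col2a1*, the main collagen of cartilage, picked for naming after its values were seen, had 265.6, 2089.6 and 364.2 CPM against 214.0, 235.0 and 282.4 CPM (log2 fold change -1.89, SE 0.76, edgeR adjusted p = 0.316). In control replicate 2, *Col2a1* alone made up 2089.6 of the 4240.2 CPM summed over the list. Without *Col2a1*, the summed markers were higher in every Cre library than in any control library. The part of cartilage cells in the level of *Fgfr3* was not tested. Without control replicate 2, the log2 fold change of *Fgfr3* was -0.47 and that of *Fgf10* -0.94. *Fgfr4*, a receptor of developing muscle, had 1.22, 2.79 and 4.39 CPM in the control libraries and 3.49, 1.03 and 8.16 CPM in the Cre libraries. It was the receptor that varied most between libraries of 1 group, and the groups overlapped (log2 fold change 0.60, SE 0.74, edgeR adjusted p = 0.773). The muscle score, the mean log2 CPM of the 20 fibre genes, was 2.90, 4.40 and 6.84 in the control libraries and 6.95, 5.19 and 8.39 in the Cre libraries. It was highest in the library with the most *Fgfr4*. *Fgfr4* was lowest in Cre replicate 2, whose score was above those of control replicates 1 and 2. With the muscle score in the model, the log2 fold change of *Fgfr4* turned to -0.91 (edgeR adjusted p = 0.5). The part of muscle cells in the level of *Fgfr4* was not tested.

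**Figure D3:**
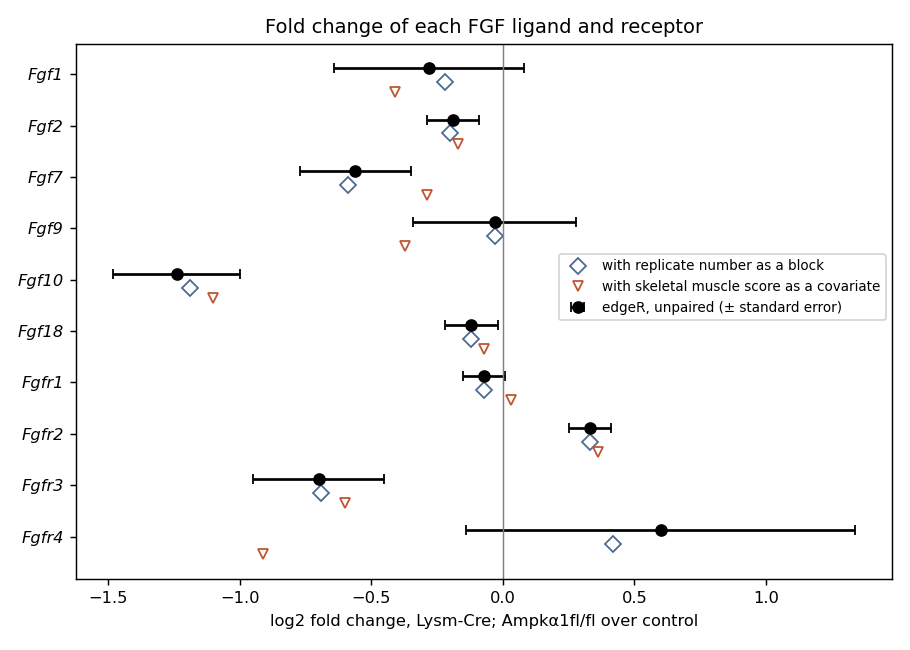
Log2 fold change, Cre over control, of each member in edgeR (filled points, bars for the standard error), with the replicate number as a block (diamonds) and with the muscle score in the model (triangles). *Fgf10* is lowest at -1.24 and stays near it in both other fits, whereas *Fgfr4* moves from 0.60 to -0.91 with the muscle score.

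Over the 10 members, 0 passed the edgeR threshold of an adjusted p under 0.05, which 128 of the 14261 genes did (0.898%). With the replicate number as a block, 47 genes passed (0.33%) and again 0 members, and DESeq2 called 680 genes (4.77%) and 1 member, *Fgf10*. At an unadjusted p under 0.05 in edgeR there were 4 members, against 14.5% of all genes. Of these, 3 were lower in the Cre group (8.55% of all genes) and 1 was higher (5.97% of all genes). The count was 2 when control replicate 2 or Cre replicate 1 was left out. The same 4 members were those whose groups did not overlap, which 20.4% of all genes did not. For each of them the exact permutation test of 3 libraries against 3, two-sided, gave p = 0.1, the smallest p it can give. The median log2 fold change was -0.16 over the members, -0.24 over the 6 ligands, which were all below 0 until control replicate 3 or Cre replicate 1 was left out, and 0.13 over the 4 receptors, beside -0.0 over all genes tested. Other scalings moved the median of all genes by less than 0.1.

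The reads of *Fgfr1* were divided by the authors' counting over 3 transcripts, all of the IIIc form, which differ in the exons for the outer end of the protein. The exon that codes for most of the first immunoglobulin-like domain is present in 2 of them and skipped in the third, and the next exon ends at either of 2 sites. These exons are shown, in coding direction and in the GRCm38 genome build (GENCODE M21), because the groups differed in the share of the transcript that skips the first of them. Capitals mark the 6 bases that are present in the longer form of the second exon and absent from the shorter one.
*Fgfr1*, skipped exon, chr8:25555508-25555774, plus strand, 267 bases: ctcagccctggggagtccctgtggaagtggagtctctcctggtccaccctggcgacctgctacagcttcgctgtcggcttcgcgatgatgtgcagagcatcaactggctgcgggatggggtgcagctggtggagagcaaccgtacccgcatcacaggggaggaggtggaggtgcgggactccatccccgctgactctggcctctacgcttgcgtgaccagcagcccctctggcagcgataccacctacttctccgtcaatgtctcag
*Fgfr1*, next exon, chr8:25557731-25557820, plus strand, 90 bases: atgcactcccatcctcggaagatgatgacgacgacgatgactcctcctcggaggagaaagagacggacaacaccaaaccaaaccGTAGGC
The transcript without the 267-base exon took 45.1, 47.4 and 45.4% of *Fgfr1* reads in the control libraries (2901, 3043 and 2529 reads) and 59.7, 63.0 and 51.6% in the Cre libraries (3666, 3893 and 2814 reads). All Cre libraries lay above all control libraries, and Cre replicate 3 was the closest to them. Both transcripts that hold the exon had lower shares in the Cre group. The shares of a library make up all of its *Fgfr1* reads, so the rise and these falls are not separate results. The one with the 84-base form of the next exon took 32.4 ± 1.4% of reads in the control group and 25.6 ± 3.25% in the Cre group (SD, n = 3), and the one with the 90-base form 21.6 ± 0.551% and 16.3 ± 3.65%. On the TPM scale, the transcript without the exon took 46.5, 48.9 and 46.8% in the control libraries and 61.1, 64.4 and 53.0% in the Cre libraries. These shares are a description without a test. How often transcript shares part the groups in other genes was not counted. Estimated counts divide reads that fit several transcripts by a model whose error is not in the table, and an antisense gene, *Gm16159*, overlaps the skipped exon.

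**Figure D4:**
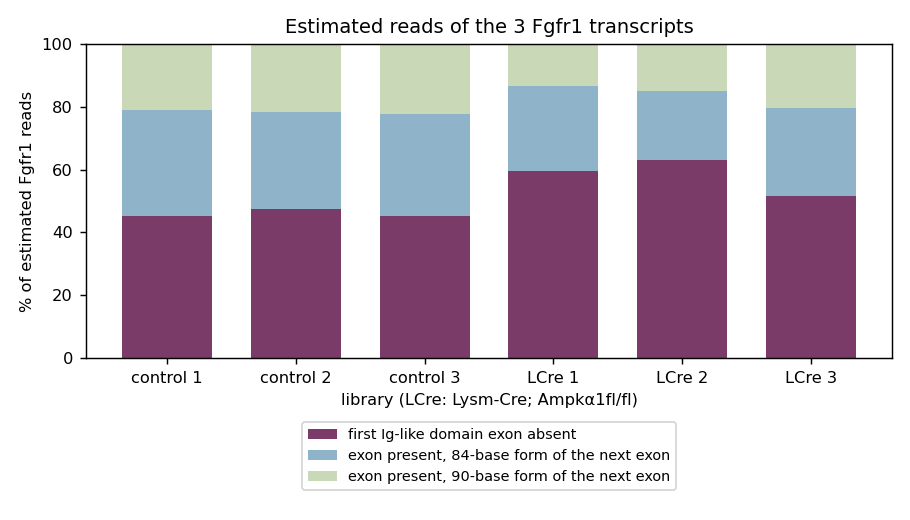
Share of the estimated *Fgfr1* reads (percent) in each of the 3 *Fgfr1* transcripts, with 1 stacked bar for each library. The transcript without the exon of the first immunoglobulin-like domain takes 45.1 to 47.4% in the control libraries and 51.6 to 63.0% in the Cre libraries.

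*Fgfr2* reads were divided between the IIIc form, the IIIb form and a further transcript that could not be paired with an annotated exon set. The IIIc form had 194, 148 and 134 reads in the control libraries and 176, 239 and 152 reads in the Cre libraries. The IIIb form, the receptor for FGF7 and FGF10, had 31, 0 and 27 reads against 0, 2 and 13. The further transcript had 33, 116 and 76 reads against 144, 81 and 155. In every library, reads assigned to IIIc outnumbered those assigned to IIIb. The further transcript, whose form is unknown, held 12.7 to 48.3% of *Fgfr2* reads, so the order of the forms over all reads is not known. No transcript separated the groups. The higher *Fgfr2* level of the Cre group therefore cannot be placed in 1 form. *Fgfr3* reads of the IIIc form were 52.06, 113.0 and 65.54 in the control libraries and 23.06, 15.6 and 46.63 in the Cre libraries, so the groups did not overlap, whereas IIIb reads did, at 20.89, 0.0 and 11.46 against 21.35, 50.4 and 5.37. At these depths a few misplaced reads change the split. *Fgf1* reads fell on different transcripts of the 10 in the table from library to library, so its gene sum alone was used.

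*Fgf7* and *Fgf10*, both lower in the Cre group at an unadjusted p under 0.05, each had a single transcript in the table. Their 250 bases before the transcription start are shown for that reason, from RefSeq (GRCm38.p6), as the regulatory sequence next to the ligands that differ most.
*Fgf7*, chr2:126034408-126034657, plus strand: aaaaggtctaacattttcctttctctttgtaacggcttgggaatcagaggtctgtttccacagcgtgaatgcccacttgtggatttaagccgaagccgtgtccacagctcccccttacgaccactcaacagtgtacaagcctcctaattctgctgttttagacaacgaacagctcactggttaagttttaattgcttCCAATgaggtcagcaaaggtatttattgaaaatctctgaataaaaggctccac
*Fgf10*, chr13:118714449-118714698, plus strand: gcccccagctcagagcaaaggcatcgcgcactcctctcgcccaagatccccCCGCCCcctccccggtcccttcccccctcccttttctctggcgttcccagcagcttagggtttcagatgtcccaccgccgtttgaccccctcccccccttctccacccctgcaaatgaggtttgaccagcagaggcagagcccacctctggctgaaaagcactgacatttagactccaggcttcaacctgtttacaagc
Capitals mark matches to 4 motifs that were searched on both strands and did not overlap each other in these windows. The *Fgf7* window held 1 CCAAT box (spelled CCAAT), as 33.8% of 32851 mouse promoter windows of this length held at least 1. In *Fgf10* there was 1 GC box (spelled GGGCGG, here on the minus strand), a motif of 32.7% of the windows. Neither window held a TATA box (spelled TATAAA), which 12.4% of the windows did, or an AP-1 site (spelled TGANTCA), which 6.7% did. The window of *Fgf7* had a GC content of 43.6% and that of *Fgf10* 61.2%. A match says only that these letters are present.

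On the genome (RefSeq, GRCm38.p6), *Fgf10* spans chr13:118714699-118792573 and *Fgfr4* chr13:55152818-55168759, both on the plus strand. *Fgf7* lies at chr2:126034658-126091185, *Fgf2* at chr3:37348477-37410106, *Fgfr3* at chr5:33721724-33737068, *Fgfr1* at chr8:25518759-25575718 and *Fgf9* at chr14:58070671-58112854, all on the plus strand. *Fgfr2* at chr7:130162451-130266808 and *Fgf18* at chr11:33116970-33147400 are on the minus strand, as is *Fgf1* on chromosome 18. Several share bases with a gene on the opposite strand in GENCODE M21, *Fgf10* with *Gm16263* over 698 bases, *Fgf2* with *Nudt6* over 5197 bases, *Fgf7* with *Fam227b*, and *Fgf1* with *Arhgap26*, named for this overlap with their values already seen. Whether the counting used strand is not given in the sources used here, so reads from the shared bases cannot be told apart. The span of *Fgf2* also overlaps *Gm43439* on the same strand over 56390 bases, where strand could not separate reads of shared bases. *Fam227b* had at most 0.0546 CPM, *Nudt6* was at 3.60 ± 0.480 and 4.51 ± 0.978 CPM, and *Arhgap26* was at 12.1 ± 1.15 and 12.0 ± 2.18 CPM in the control and the Cre group.

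Proteins that bind FGFs at the cell surface held the clearest differences in the pathway. Of the 19 coreceptors and FGF-binding proteins tested, 2 passed the edgeR threshold, beside 0.898% of all genes. At an unadjusted p under 0.05 there were 9, of which 5 were higher and 4 lower, beside 14.5% of all genes. DESeq2 called 7 of the 19, beside 4.77% of all genes, and edgeR with the replicate block 0, beside 0.33%. *Gpc1*, a glypican that carries heparan sulfate on the cell surface, had 400.6, 344.0 and 344.8 CPM in the control libraries and 602.5, 657.2 and 572.2 CPM in the Cre libraries. Every Cre library was above every control library. It was 1.68 times higher in the Cre group (log2 fold change 0.75, SE 0.09, edgeR adjusted p = 0.0204), with an adjusted p of 0.0524 when the replicate number was a block in edgeR. *Gpc6*, another glypican, had 71.7, 68.5 and 71.5 CPM against 50.5, 52.7 and 52.9 CPM, with no overlap. Its log2 fold change was -0.44 (SE 0.05), with an edgeR adjusted p of 0.0196 and, with the block, of 0.0634. Neither *Gpc1* nor *Gpc6* passed the threshold when control replicate 1, control replicate 2, control replicate 3 or Cre replicate 1 was left out, and *Gpc6* did not pass without Cre replicate 3 either. With the muscle score in the model, the log2 fold changes were 0.87 for *Gpc1* and -0.44 for *Gpc6* (edgeR adjusted p = 0.00931 and 0.0641).

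*Nrp1*, a coreceptor of semaphorins and VEGF that also binds heparin-binding growth factors, had 186.5, 183.7 and 177.3 CPM in the control libraries and 153.8, 150.1 and 135.0 CPM in the Cre libraries (log2 fold change -0.32, SE 0.06, edgeR adjusted p = 0.0869). The 8 endothelial markers summed to between 814.4 and 888.9 CPM in the control libraries and between 767.7 and 787.9 CPM in the Cre libraries. In edgeR 0 of them were called and 3 had an unadjusted p under 0.05, beside 14.5% of all genes. In log2 fold change, 7 were below 0 and 1 above 0. The part of endothelial cells in the level of *Nrp1* was not tested. *Fgfrl1*, a receptor of the same family without a kinase domain, picked for naming after its values were seen, had 45.7, 42.2 and 53.4 CPM against 62.2, 69.6 and 79.3 CPM. For *Nrp1* and for *Fgfrl1*, the groups did not overlap. DESeq2 gave *Nrp1* an adjusted p of 0.00168. The log2 fold change of *Fgfrl1* was 0.58 (SE 0.12, unadjusted p = 0.00182, edgeR adjusted p = 0.0871), and DESeq2 gave an adjusted p of 0.000398. The syndecans, also picked afterwards, differed in direction, with log2 fold changes of 0.29 for *Sdc1*, -0.12 for *Sdc2*, 0.27 for *Sdc3* and 0.07 for *Sdc4* (unadjusted p = 0.00517, 0.037, 0.0369 and 0.388), and the glypican *Gpc3* had -0.50 (unadjusted p = 0.00547). The median over the list was 0.01.

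**Figure D5:**
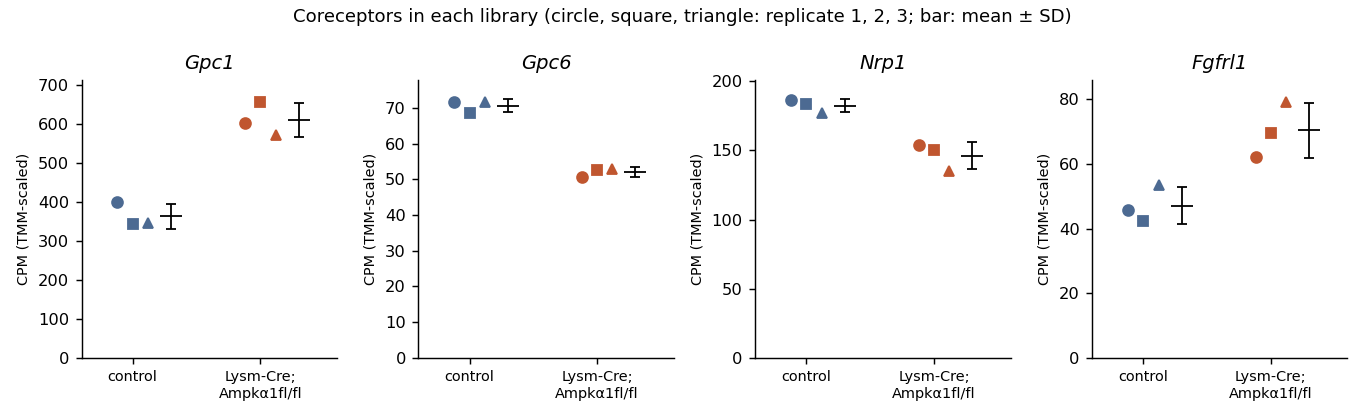
Expression of *Gpc1*, *Gpc6*, *Nrp1* and *Fgfrl1* in CPM (linear axes from 0), with 1 marker for each library and a bar for the mean ± SD of 3 libraries. *Gpc1* lies between 344.0 and 400.6 CPM in the control group and between 572.2 and 657.2 CPM in the Cre group, and none of the 4 genes overlaps between the groups.

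Among the enzymes that build and edit heparan sulfate, 18 were tested. In edgeR 0 passed the threshold and 3 had an unadjusted p under 0.05 (16.7%, beside 14.5% of all genes). Of these, 2 were higher and 1 lower, and DESeq2 called 0. *Hs3st1*, which adds a rare sulfate group, had 8.25, 6.72 and 6.85 CPM in the control libraries and 4.38, 5.52 and 3.30 CPM in the Cre libraries (log2 fold change -0.73, SE 0.21, edgeR adjusted p = 0.181). *Sulf2*, a sulfatase that trims the chains outside the cell, was at 1034.4 ± 34.2 and 1204.6 ± 107.8 CPM (log2 fold change 0.22, edgeR adjusted p = 0.254), and *Hs2st1* had a log2 fold change of 0.16 (edgeR adjusted p = 0.324).

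Of the 12 other secreted FGFs listed, *Fgf5* and *Fgf16* had enough reads to be tested, and the 8 others that were measured had at most 10 reads in any library. *Fgf16* had 2.96, 3.06 and 2.96 CPM in the control libraries and 1.93, 2.27 and 2.49 CPM in the Cre libraries, so the groups did not overlap (log2 fold change -0.43, SE 0.18, unadjusted p = 0.0494, edgeR adjusted p = 0.342). *Fgf5* was at 3.94 ± 1.20 and 3.56 ± 0.795 CPM (edgeR adjusted p = 0.871). Among the homologous factors that stay inside the cell and act on sodium channels, *Fgf11*, *Fgf12* and *Fgf13* were tested, with log2 fold changes of -0.23, -0.82 and 0.22 (edgeR adjusted p = 0.489, 0.543 and 0.764).

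Downstream of the receptors, DESeq2 and edgeR each called 0 genes in the lists of cascade proteins, inhibitors and response genes. At an unadjusted p under 0.05 in edgeR were 7.7, 6.2 and 12.5% of these lists, beside 14.5% of all genes. Of 26 adaptors and kinases of the cascade, 0 passed the edgeR threshold and 2 had an unadjusted p under 0.05, *Map2k2* (log2 fold change -0.18, edgeR adjusted p = 0.291) and *Braf* (log2 fold change 0.15, edgeR adjusted p = 0.336). The S6 kinase *Rps6ka3* had a log2 fold change of -0.11 (edgeR adjusted p = 0.349). Of 16 feedback inhibitors, 0 passed the threshold and 1 had an unadjusted p under 0.05, the adaptor *Sh2b3* (log2 fold change -0.12, edgeR adjusted p = 0.315). The list had a median of -0.03, with 13 genes below 0. *Il17rd*, an inhibitor of FGF receptors at the membrane, had a log2 fold change of 0.14 and the ERK phosphatase *Dusp4* -0.47 (edgeR adjusted p = 0.439 and 0.514). *Spry1*, *Spry2*, *Spry4* and *Dusp6*, the usual readouts of FGF signalling, named after their values were seen, had log2 fold changes of 0.10, -0.03, -0.18 and -0.03. *Dusp6* was at 43.2 CPM in the control group and 42.4 CPM in the Cre group.

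Of 16 response genes of ERK and the ETS factors, 0 passed the edgeR threshold and 2 had an unadjusted p under 0.05. *Etv1*, an ETS factor that FGF signalling induces in many tissues, had 9.31, 8.58 and 11.5 CPM in the control libraries and 7.25, 8.11 and 6.92 CPM in the Cre libraries, without overlap (log2 fold change -0.40, SE 0.14, edgeR adjusted p = 0.273). Its relatives *Etv4* and *Etv5*, named after their values were seen, had log2 fold changes of -0.17 and -0.26 (unadjusted p = 0.42 and 0.0633). *Fosl2*, a subunit of the AP-1 factor, was higher in each Cre library than in each control library (log2 fold change 0.20, SE 0.06, edgeR adjusted p = 0.192), and the zinc finger factor *Egr3* had a log2 fold change of -0.27 (edgeR adjusted p = 0.361). Over the 100 pathway genes tested that are not members, 2 passed the threshold, beside 0.898% of all genes, and 18 had an unadjusted p under 0.05, of which 9 were higher and 9 lower, beside 14.5% of all genes. Their median log2 fold change was -0.01.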

How the data were processed

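Tendon RNA of 3 control and 3 Lysm-Cre; Ampkα1fl/fl mice was sequenced at BGI. The authors deposited an estimated count and a TPM value for each of 65053 RefSeq transcripts per library, with GRCm38 (p6) named in the submitters' processing notes. The aligner and counter are not given in the sources used here. Another 20 value columns (6 FPKM, 6 normalized count, 8 group averages) and the authors' fold changes and p-values were not used. Estimated counts were summed per gene and rounded, which gave 18099 genes, and 18049 (99.72%) were matched to a symbol. After filterByExpr, 14261 genes were fitted in R 4.3.3 with edgeR 4.0.16 (TMM, quasi-likelihood F test, Benjamini-Hochberg adjustment over all genes, threshold 0.05). The standard error (SE) of a log2 fold change was taken as its size over the root of F. The fit was also run on counts simulated from edgeR's own estimates of the spread. That run does not test whether these estimates suit the data.

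The members and lists were chosen with earlier results of these data known. Named were all members, every called pathway gene, the 3 genes with the smallest p in each pathway list, 2 checks of the labels, and the 3 genes most like the most variable ligand and receptor. Others are marked. Same-numbered libraries had correlated deviations from their group means (0.184, 0.118 and 0.31 across genes), but a differently numbered pair reached 0.501, so the pairing by the labels' numbers is uncertain. The block result is given where it changes a call. The labels count 3 mice per group. Alternatives were DESeq2 1.42.0, limma 3.58.1 on log2(TPM + 0.1), RLE and upper-quartile scaling, no filter, at least 10 reads in every library, the block, the muscle score, and leaving out each library. The sequences of the alternative receptor exons are not reported here.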

Additional observations from a re-analysis of the deposited data

How the results depend on the processing

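Of 140 fits of a member under an alternative, 133 kept the direction and the side of the threshold, 6 turned the direction and 1, *Fgf10* in DESeq2 (log2 fold change -1.23), passed the threshold. DESeq2 called 1 member in place of 0 and 7 pathway genes that are not members in place of 2. With the replicate block there were 0 such pathway calls, as *Gpc1* and *Gpc6* were lost, and 47 calls over all genes in place of 128, and the block changed no call of a member. The muscle score as a covariate gave 1 pathway call, 2 members at an unadjusted p under 0.05 in place of 4, and a median over the members of -0.33 in place of -0.16. It turned *Fgfr1* to 0.03, *Fgfr4* to -0.91, *Fgf5* to 0.35, *Fgf13* to -0.17, *Col22a1* to -0.59, *Hmcn2* to -0.36 and *Dusp10* to -0.29 on the log2 scale. Limma on TPM gave 1 pathway call. Leaving out each library in turn gave 0 to 2 pathway calls, 2 to 5 members at an unadjusted p under 0.05, and 8 to 276 calls over all genes. It also turned the log2 fold change of *Fgf1* (-0.49 to 0.18, positive without control replicate 3), *Fgf9* (-0.26 to 0.25, positive without control replicate 3 or Cre replicate 1), *Fgfr4* (-0.30 without Cre replicate 3 to 1.08), *Fgf5* (-0.38 to 0.02, positive without control replicate 1 or Cre replicate 3), *Col22a1* (-0.21 to 0.56), *Hmcn2* (-0.16 to 0.36) and *Dusp10* (-0.14 to 0.21), with the last 3 lowest without Cre replicate 3. The cause of these changes was not tested. The members with the fewest reads were *Fgf9* (34 to 63 reads per library, SE 0.31) and *Fgfr4* (19 to 151 reads, SE 0.74).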

Other observations

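Among 13612 genes with a mean of at least 1 CPM, those whose log2 CPM followed *Fgf10*, the ligand that varied most over the 6 libraries (SD 0.71), most closely were *Gnas*, the stimulatory G protein subunit, *Adamts18*, a secreted metalloprotease, and *Wdr62*, a centrosome protein. Each had a Pearson r of 0.99 over the 6 libraries, which share the split into groups. *Gnas* was at 2861.4, 3098.7 and 2527.0 CPM in the control libraries and at 2183.0, 2194.0 and 2240.5 CPM in the Cre libraries, and *Adamts18* was at 5.82, 7.27 and 4.50 CPM against 3.02, 3.08 and 2.92 CPM. All 3 genes were highest in control replicate 2, as *Fgf10* was.

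For *Fgfr4*, the receptor that varied most (SD 1.09), they were *Col22a1*, a collagen of the muscle-tendon junction (r = 0.997), *Hmcn2*, a hemicentin of the matrix (r = 0.992), and *Dusp10*, a phosphatase of stress kinases (r = 0.991). *Col22a1* was at 17.4, 29.5 and 35.4 CPM in the control libraries and at 31.5, 15.8 and 49.6 CPM in the Cre libraries, highest in Cre replicate 3 and lowest in Cre replicate 2, like *Fgfr4*. Genes picked as the closest of so many will correlate highly over 6 libraries, and nothing is drawn from it.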
